A study of Mus musculus with 2 samples.

Results

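Myc and 37 genes of ribosome biogenesis, 38 of the 31053 genes in the count matrices, were followed in luminal cells of the mouse mammary gland. They were taken by symbol from a list, each symbol matching 1 gene in both matrices. No threshold on a measured value chose them, but the list was drawn up with earlier results of these data known. The list holds Myc, 5 abundant nucleolar proteins, 3 proteins of box C/D and 3 of box H/ACA small nucleolar ribonucleoproteins (snoRNPs), 3 subunits of RNA polymerases I and III, 10 genes of small subunit assembly and 13 of large subunit assembly. All 38 had 50 or more UMIs (unique molecular identifiers, each counting 1 captured transcript) in every comparison made, so none was lost to the filter on low counts.

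Myc is a transcription factor that pairs with Max, binds the E-box motif CACGTG and is best known for raising the genes of cell growth. Ribosome biogenesis is one of its best described programmes: RNA polymerase I transcribes the ribosomal RNA precursor in the nucleolus, snoRNPs modify it, and large assembly complexes fold and cut it into both subunits. In the mammary gland the demand for ribosomes follows both milk secretion and cell division.

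Luminal cells were sorted by flow cytometry from mammary glands of FVB/NJ mice aged 3.5 months and profiled with the 10x Chromium 3′ v3.1 chemistry. The WT library came from Sox9-GFP mice and the C3-TAg library from Sox9-GFP;C3-TAg mice, so both groups carried the Sox9-GFP reporter. C3-TAg is a transgene that drives the SV40 large T antigen, which inactivates the p53 and retinoblastoma proteins, from regulatory sequence of the rat prostatein C3(1) gene, and it is used as a mammary tumour model. The labels state 10000 submitted cells per sample; they describe neither the sorting gate nor the number of mice behind a library.

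With 1 library in each group, differences between WT and C3-TAg could not be set against replicates, and p-values are not given. All intervals are 95% intervals and cover counting error only. After filtering, 7046 WT and 7914 C3-TAg cells remained, with a median of 10296 and 8684 UMIs. Only 17 kept barcodes occurred in both libraries, 0.241% of those of WT. Cells were divided by fixed limits on marker genes, so the classes are ranges of a score and not cell types. Hormone-sensing cells had at least 5 UMIs of Areg, Pgr, Esr1 and Cited1 per 10000. The other cells were split at a casein share of 0.5% of UMIs and at 5 UMIs of Mki67, Top2a, Cdk1 and Ccnb1 per 10000 into casein-rich or casein-low and cycling or non-cycling. This gave 2720, 3748 and 574 WT cells in the hormone-sensing, casein-rich non-cycling and casein-low non-cycling classes, and 2027, 1905 and 1796 C3-TAg cells. Cycling cells were 586 casein-rich and 1600 casein-low cells in C3-TAg and 2 and 2 cells in WT, which were not compared.

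The 10 hormone-sensing markers outside the class rule summed to 3249 counts per 1e+06 UMIs (CPM) in hormone-sensing and 105 CPM in casein-rich cells of WT, and to 2044 and 101 CPM in C3-TAg. Other sets of markers moved with the libraries and touch every result between them. The S phase list of 16 replication genes, among them Mcm2 to Mcm7 and Pcna, stood at 170.0, 143 and 194 CPM in the hormone-sensing, casein-rich and casein-low non-cycling cells of WT. In the same classes of C3-TAg it stood at 919, 1204 and 2020.1 CPM, although these cells were under the mitotic limit or in the hormone-sensing class. The 12 basal markers summed to 24.0, 42.5 and 317 CPM in WT and to 323, 449 and 747 CPM in C3-TAg, carried mainly by Krt14 and Krt17. Only 4, 3 and 5 of them passed the filter on low counts in the respective comparisons of C3-TAg with WT. Krt14 was higher by 1.5-fold or more in each, and Krt17 and Mylk in hormone-sensing and casein-low cells. Acta2 was lower by as much in hormone-sensing and casein-rich cells, and Krt5 in casein-low cells. Of the 12 markers 0 to 2 were at 0 in each of these classes. Immune, endothelial and mural, and fibroblast markers each summed to at most 53.8 CPM in any of them. Of 12 further mitotic genes outside the class rule, the sum went from 3.18 to 214 CPM in hormone-sensing, from 6.17 to 266 CPM in casein-rich and from 8.26 to 244 CPM in casein-low non-cycling cells. For the 12 secretory markers outside the class rule the sum went the other way. It fell from 1020.4 to 813, from 31971 to 14581 and from 13831 to 4548 CPM. Single markers did not follow that sum in hormone-sensing cells. There 6 of the 12 rose by 1.5-fold or more in C3-TAg and 3 fell by as much, and their middle log2 value was 0.44. In casein-rich and casein-low non-cycling cells 0 rose by as much, while 6 and 8 fell. Immediate early genes, a group that tissue dissociation is known to raise and to which Myc itself belongs, were mixed. Of 18 such genes 8, 3 and 8 were higher by 1.5-fold or more in the hormone-sensing, casein-rich and casein-low non-cycling cells of C3-TAg. In the same order 2, 5 and 1 were lower, and the median log2 ratios were 0.55, 0.00 and 0.29. Of all genes 20.7%, 25.6% and 31.6% were higher and 8.06%, 9.58% and 11.2% lower in these classes. The part of the replication, mitotic, secretory, basal and immediate early genes in the results was not tested beyond the values given. In the hormone-sensing class 147 WT and 357 C3-TAg cells lay just above the limit, under 10 UMIs per 10000. From 2.5 UMIs per 10000 up to the limit lay 36 casein-rich and 61 casein-low non-cycling cells of WT. In C3-TAg these were 39 and 207 non-cycling cells, and 14 casein-rich and 263 casein-low cycling cells.

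All 38 genes matched the GENCODE annotation of GRCm38 and lie on 17 chromosomes. Myc lies at chr15:61985391-61990374 on the plus strand. The exons of 15 members overlap those of a gene on the opposite strand, as Nop56 does with Idh3b, Dkc1 with Mpp1, Nhp2 with Rmnd5b and Bop1 with Mroh1. The sources used here do not say whether the counting used strand, and without strand reads of such pairs cannot be told apart. The mouse genome holds processed copies of abundant genes such as Npm1, and the treatment of reads that match several places is likewise not stated.

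Because Myc binds CACGTG, which reads the same on both strands, RefSeq promoters on GRCm38.p6 were searched for it from 250 bases before to 50 bases after the start. The table holds 32 of the 38 members; Bop1, Fbl, Myc, Npm1, Rrp12 and Rrs1 were not matched. The motif occurred in 8 of the 32, namely Grwd1, Ltv1, Mybbp1a, Nop2, Pes1, Tsr1, Utp20 and Wdr43, against 8.09% of 27025 genes in the table. Member promoters were richer in G and C, with a median of 59.7% against 52.7%, and among the 8242 promoters within the members' middle range of that content the share was 9.68%. In 7 of the 8 the motif lay just after the start, from position 3 to position 41 counted with the start base as 1, and in Nop2 it began 60 bases before the start. The stretches from 150 bases before to 30 after the start are shown for the 4 members whose motif lies inside them, and for Dkc1, the member with the largest difference between the libraries outside the hormone-sensing cells. Capitals mark CACGTG. All 5 are on the plus strand.
Nop2, chr6:125131733-125131912: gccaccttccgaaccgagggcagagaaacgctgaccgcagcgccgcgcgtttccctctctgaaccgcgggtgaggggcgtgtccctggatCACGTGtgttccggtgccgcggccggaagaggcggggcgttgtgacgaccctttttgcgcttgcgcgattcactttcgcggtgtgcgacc
Pes1, chr11:3963825-3964004: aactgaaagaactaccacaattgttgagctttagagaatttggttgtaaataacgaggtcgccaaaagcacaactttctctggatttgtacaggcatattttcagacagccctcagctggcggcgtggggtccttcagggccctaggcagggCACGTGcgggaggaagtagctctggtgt
Tsr1, chr11:74897930-74898109: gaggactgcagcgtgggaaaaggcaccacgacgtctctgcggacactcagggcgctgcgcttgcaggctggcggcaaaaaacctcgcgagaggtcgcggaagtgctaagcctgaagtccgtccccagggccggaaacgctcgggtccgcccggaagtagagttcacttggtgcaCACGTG
Wdr43, chr17:71616065-71616244: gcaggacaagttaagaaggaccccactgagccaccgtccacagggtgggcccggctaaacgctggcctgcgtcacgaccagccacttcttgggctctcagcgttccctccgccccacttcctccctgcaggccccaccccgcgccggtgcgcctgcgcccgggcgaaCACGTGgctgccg
Dkc1, chrX:75095704-75095883: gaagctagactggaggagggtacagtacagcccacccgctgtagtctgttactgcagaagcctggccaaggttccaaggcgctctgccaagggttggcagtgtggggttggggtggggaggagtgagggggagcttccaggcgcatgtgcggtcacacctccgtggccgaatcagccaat
The Dkc1 stretch holds no CACGTG, and neither does the rest of its 300 base window.

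Myc was higher in C3-TAg than in WT in each of the 3 classes compared. In WT its level was 54.8 CPM (52.0 to 57.7) in hormone-sensing cells, 76.6 CPM in casein-rich and 115 CPM in casein-low non-cycling cells. In C3-TAg the levels were 133, 145 and 215 CPM in the same order, 138 CPM in casein-rich and 191 CPM in casein-low cycling cells. The C3-TAg over WT ratio was 2.43-fold in hormone-sensing cells (log2 1.28, interval 1.19 to 1.38), 1.89-fold in casein-rich cells (0.92, 0.85 to 0.99) and 1.87-fold in casein-low cells (0.91, 0.77 to 1.04). Without the cells that carried S phase genes, described further on, the casein-low ratio was 0.37 and no longer past 1.5-fold. The order of the classes was the same for the non-cycling classes of both libraries, lowest in hormone-sensing and highest in casein-low cells. In C3-TAg this order depended on the filter, since with a mitochondrial limit of 5% casein-rich cells stood at -0.06 relative to hormone-sensing cells. Under the limit of 10% used throughout, the same log2 difference was 0.12 (0.04 to 0.20).

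The share of cells with a Myc UMI followed the same order once each cell was thinned to 2000 UMIs. It was 8.89% (Clopper-Pearson interval 7.85 to 10.0) of 2710 hormone-sensing, 14.1% of 3740 casein-rich and 19.0% of 567 casein-low non-cycling WT cells. In C3-TAg it was 20.9% (19.2 to 22.8) of 2020, 23.7% of 1905 and 32.0% of 1780 cells. Before thinning the shares were 31.8%, 46.5% and 46.3% in WT and 54.0%, 65.4% and 65.3% in C3-TAg, where the deeper casein-rich cells (median 11798 UMIs in WT and 9720.0 in C3-TAg) stood no lower than casein-low cells (7608 and 7068). Thinning left out 7 to 10 cells of each WT class and 0 to 16 cells of each C3-TAg class. Some cells had at least 5 UMIs of immune, endothelial, mural or fibroblast genes per 10000, and their type was not checked further. Myc stood at 104 CPM (67.9 to 152) in 33 such WT cells and at 144 CPM (106 to 191) in 30 such C3-TAg cells, so Myc was counted in those cells too.

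**Figure D1:**
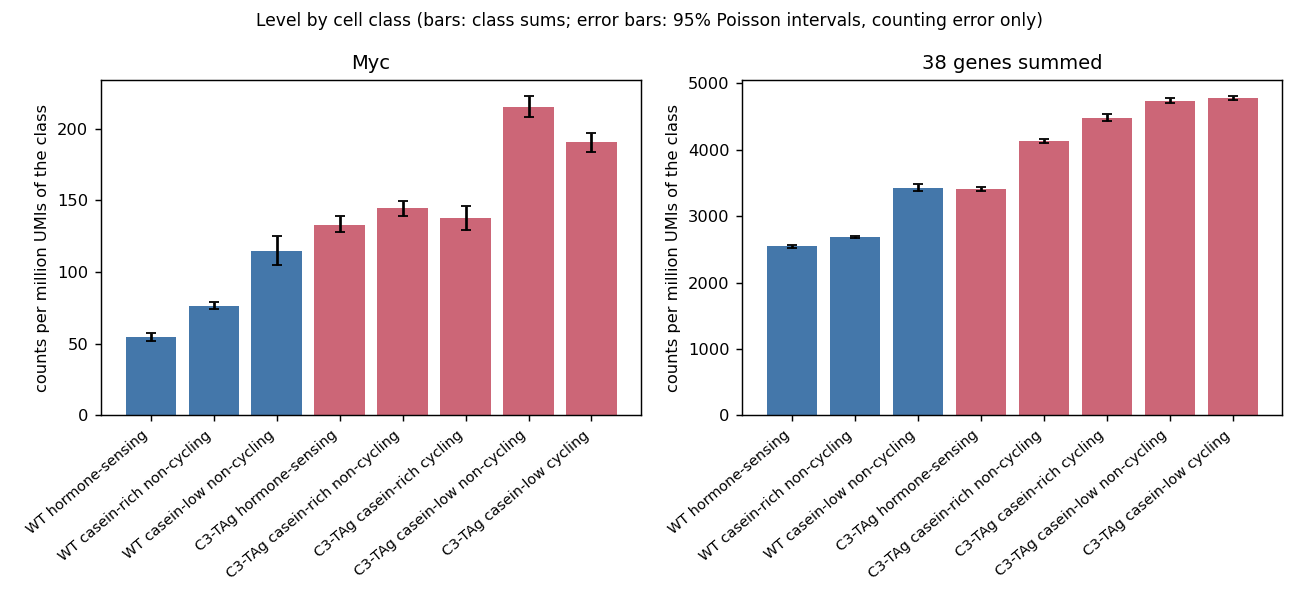
Bars give the level of Myc (left) and of the 38 genes summed (right), in CPM of the class total, for 3 WT classes (blue) and 5 C3-TAg classes (red), with 95% Poisson intervals. Myc ranges from 54.8 CPM in WT hormone-sensing to 215 CPM in C3-TAg casein-low non-cycling cells, and the sum from 2546 to 4779 CPM.

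Among the nucleolar proteins, the 38 genes' largest contributors Npm1 and Ncl followed different courses. Npm1, the histone and ribosomal protein chaperone nucleophosmin, was flat over the WT classes at 822, 777 and 812 CPM, and stood at 967, 1324 and 1227 CPM in C3-TAg. Its C3-TAg over WT ratio was 1.18-fold, 1.71-fold and 1.51-fold. Ncl, the RNA-binding protein nucleolin, went from 436 to 558 and 801 CPM over the WT classes and from 578 to 749 and 915 CPM over those of C3-TAg, with ratios of 1.32-fold, 1.34-fold and 1.14-fold. From hormone-sensing to casein-low cells Ncl thus differed more than it did between libraries, while its step from hormone-sensing to casein-rich cells was no larger than that. Npm1 differed more between libraries than between classes outside the hormone-sensing cells. Nolc1, a chaperone of snoRNPs, stood at 33.9, 63.1 and 94.5 CPM in WT and at 71.3, 117 and 144 CPM in C3-TAg, and was past 1.5-fold in all 3 classes. Gnl3 (nucleostemin) passed 1.5-fold in casein-rich cells only, from 70.3 to 118 CPM, and Mybbp1a, a nucleolar cofactor of ribosomal RNA processing, in none.

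The snoRNP proteins include Dkc1, the member with the largest difference between the libraries in casein-rich and casein-low cells. Dkc1, the pseudouridine synthase dyskerin of the box H/ACA particles, was nearly level over the 3 WT classes at 14.8, 14.3 and 15.7 CPM. In C3-TAg it stood at 28.4, 38.8 and 46.9 CPM in these classes, and at 50.1 and 60.8 CPM in casein-rich and casein-low cycling cells. Its ratio was 1.92-fold, 2.71-fold (log2 1.44, 1.29 to 1.59) and 2.99-fold (1.58, 1.23 to 1.95). Gar1, its partner, stood at 32.0, 43.5 and 59.7 CPM in WT and at 58.5, 71.3 and 113 CPM in C3-TAg, past 1.5-fold in each. Nhp2, another core protein of the same particle, did otherwise: 176 and 171 CPM in the hormone-sensing cells of WT and C3-TAg (log2 ratio -0.04, interval -0.11 to 0.02) but 122 and 212 CPM in casein-rich cells (0.80, 0.74 to 0.85).

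In the box C/D particles, which guide ribose methylation, Nop58 and Nop56 form the scaffold and Fbl (fibrillarin) is the methyltransferase. Nop58 stood at 125, 89.5 and 133 CPM in WT and at 214, 154 and 253 CPM in C3-TAg, and passed 1.5-fold in each class. Nop56 went from 46.2 to 70.0 CPM in hormone-sensing and from 54.9 to 90.1 CPM in casein-rich cells. In casein-low cells its WT and C3-TAg levels were 93.0 and 90.2 CPM, and the log2 ratio was -0.04 (-0.20 to 0.12). Fbl stayed within 1.5-fold in all 3 classes, from 81.0 to 104, 93.3 to 133 and 136 to 152 CPM. Nop56 and Nop58, which sit in the same particle, thus had ratios with separate intervals in casein-low cells.

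Of the polymerase subunits, Polr1a, the catalytic subunit of RNA polymerase I, had log2 ratios of 0.60, 0.73 and 0.48, and passed 1.5-fold in hormone-sensing and casein-rich cells. Polr1b, its partner in the catalytic core, had few UMIs (56 in each hormone-sensing class and 30 in WT casein-low cells) and wide intervals, 0.09 to 1.21 in hormone-sensing and -0.42 to 0.82 in casein-low cells. Polr1c, which RNA polymerases I and III share, stayed within 1.5-fold, at 0.13, 0.08 and 0.19.

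Of the 10 genes of small subunit assembly, 3 passed 1.5-fold in each class, where 20.7%, 25.6% and 31.6% of all genes did in hormone-sensing, casein-rich and casein-low cells. In hormone-sensing cells these were Tsr1, Wdr43 and Utp15. Utp20, a large scaffold of the small subunit processome, led the group elsewhere. It stood at 7.65 and 8.26 CPM in casein-rich and casein-low WT cells and at 16.4 and 22.2 CPM in those of C3-TAg, ratios of 2.14-fold and 2.69-fold (log2 1.43, 0.95 to 1.95, on 39 WT UMIs). Rrp9, a protein of the U3 snoRNP, had low log2 ratios in all 3 classes, at 0.21, 0.20 and -0.16. Ddx21, an RNA helicase, had 0.51, 0.21 and 0.10, and Rrp12, a factor of subunit export, had 0.17, 0.63 and -0.05.

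Of the 13 genes of large subunit assembly, 6 passed 1.5-fold in hormone-sensing, 4 in casein-rich and 8 in casein-low cells, to be read against the same shares of all genes. Rrs1, which brings the 5S particle into the precursor, led in hormone-sensing cells going from 20.1 to 46.9 CPM, 2.34-fold. Nop2, a ribosomal RNA methyltransferase, went from 8.88 to 20.1 CPM there (2.27-fold), from 15.7 to 24.9 CPM in casein-rich and from 22.2 to 37.2 CPM in casein-low cells. Grwd1, a chaperone of a ribosomal protein, was past 1.5-fold in all 3 classes at log2 1.06, 0.70 and 0.70. Pes1, Bop1 and Wdr12 act as 1 complex, yet their log2 ratios in hormone-sensing cells were 0.02, -0.08 and 0.49, and in casein-low cells 0.53, 0.61 and 0.92.

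Counted over the list, the 38 genes shifted upwards in C3-TAg, and the shift has to be read against that of all genes. In hormone-sensing cells 17 of 38 (44.7%) were higher by 1.5-fold or more and 0 lower, where 20.7% of all 11557 genes measured were higher and 8.06% lower. The median log2 ratio was 0.56 for the members and 0.14 for all genes. In casein-rich non-cycling cells it was again 17 (44.7%) and 0, against 25.6% and 9.58% of all genes, with medians of 0.55 and 0.27. In casein-low non-cycling cells it was 17 (44.7%) and 0, against 31.6% and 11.2%, with medians of 0.53 and 0.30. These comparisons share the 2 libraries and are given side by side. The summed level of the 38 genes went from 2546 to 3403 CPM in hormone-sensing, from 2692 to 4126 CPM in casein-rich and from 3425 to 4739 CPM in casein-low cells.

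That upward shift of all genes depends on the total by which counts are divided. TMM scaling, which sets a weighted trimmed mean of the gene ratios to 0, lowered every log2 ratio by 0.18, 0.29 and 0.22 in the 3 comparisons. It left 9, 4 and 8 members past 1.5-fold, against 14.9%, 14.1% and 21.0% of all genes, and medians of 0.37, 0.26 and 0.31. Under TMM scaling 4 of 38 in casein-rich cells and 8 of 38 in casein-low cells are shares near those of all genes. Myc kept log2 ratios of 1.10, 0.62 and 0.69 and Dkc1 of 0.76, 1.15 and 1.36 under that scaling. Ncl went to -0.03 and Fbl to -0.06 in casein-low cells, so the small differences of these genes there change sign with the scaling.

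**Figure D2:**
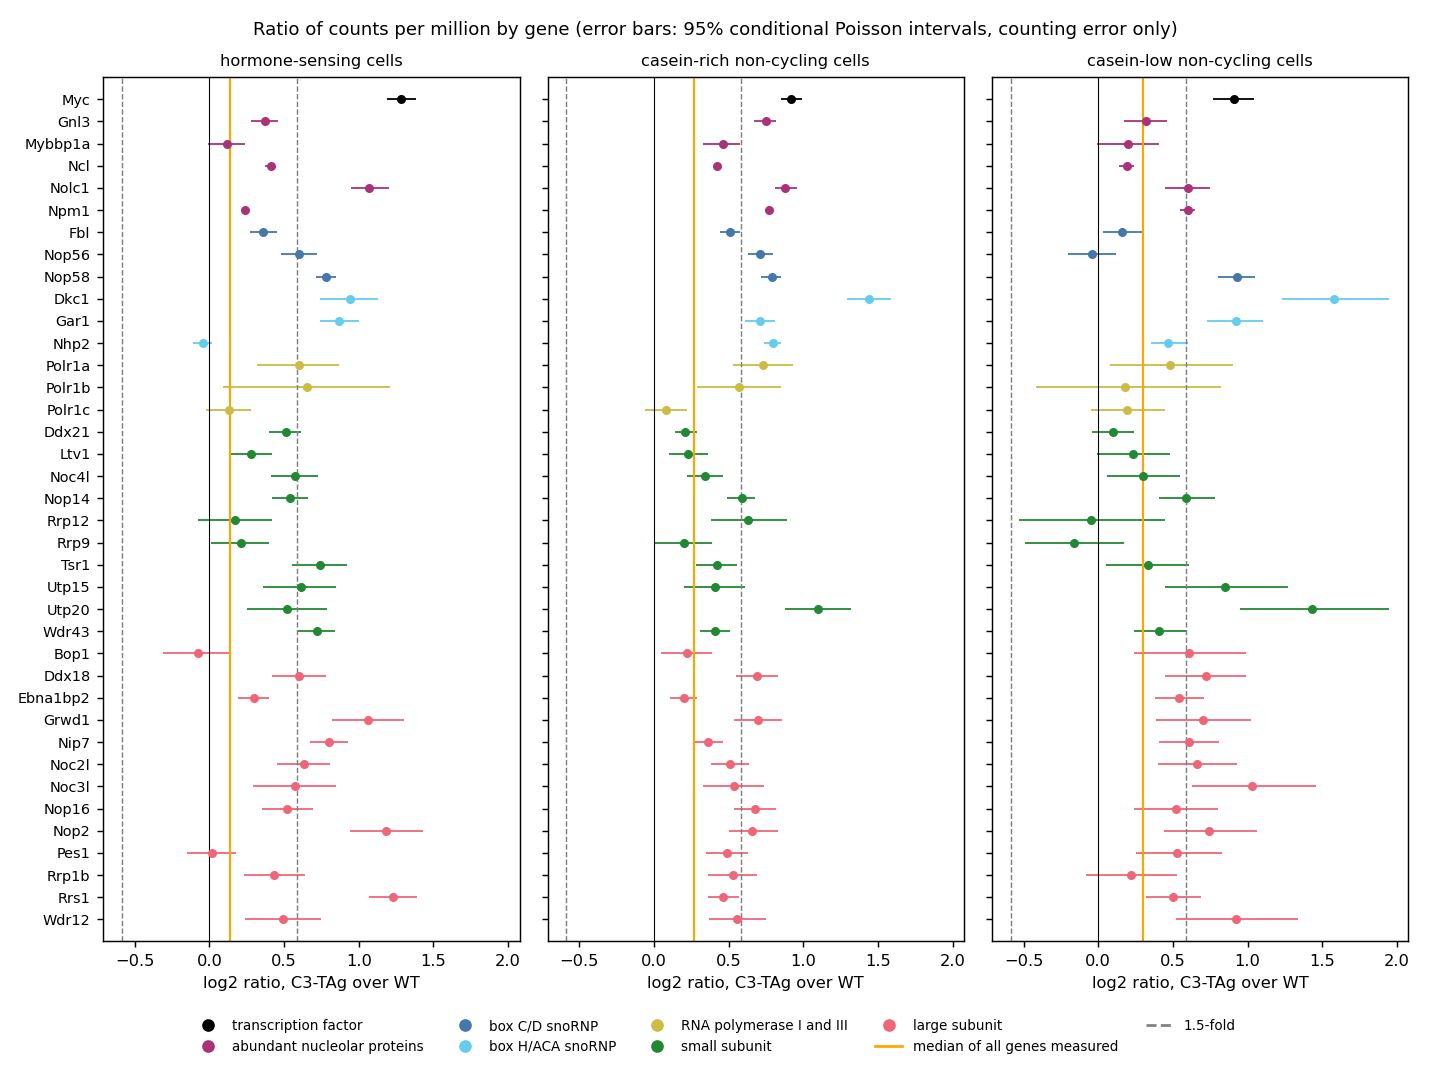
Points give the log2 ratio of CPM, C3-TAg over WT, of the 38 genes by role in 3 classes, with 95% conditional Poisson intervals; the orange line is the median of all genes and dashed lines mark 1.5-fold. Dkc1 reaches 1.44 and 1.58 outside the hormone-sensing cells, Myc 1.28 within them, and no member lies past 1.5-fold on the lower side.

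The replication genes of the non-cycling C3-TAg cells bear on these values. Only 803 of the 1905 casein-rich and 772 of the 1796 casein-low cells had no UMI of the 4 mitotic genes. When cells with 5 or more UMIs of the S phase list per 10000 were left out, 491 casein-rich and 181 casein-low C3-TAg cells remained, 25.8% and 10.1% of their classes, against 3667 and 529 WT cells. In casein-rich cells the median of the members then was 0.31, with 7 of 38 past 1.5-fold against 15.3% of all genes and an all-gene median of 0.13. Myc (0.88), Dkc1 (1.09), Utp20 (0.77), Nop16, Rrp12, Nhp2 and Polr1a were those 7.

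In casein-low cells the median was 0.03 against 0.14 for all genes. Of 37 members with 50 or more UMIs, 3 were higher (Bop1, Dkc1 and Utp20) and 3 lower (Nop2, Polr1c and Ltv1), against 15.5% and 9.46% of all genes. Myc stood at 0.37 (0.11 to 0.61), Dkc1 at 0.78 and Ncl at -0.27. The 181 cells held 434 CPM of immune, endothelial, mural and fibroblast genes against 109 CPM in WT, and 957 CPM of hormone-sensing markers against 418 CPM, so they are not the same mixture as their class. The summed members were 3472 CPM there and 4856 CPM in the 1615 cells over the limit.

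In hormone-sensing cells, leaving out those over the mitotic or the S phase limit kept 2651 WT and 1533 C3-TAg cells. This choice was made after the values were seen. The median was 0.32 against 0.05 for all genes, and 4 of 38 were past 1.5-fold against 9.24% of all genes: Myc at 1.07 (0.96 to 1.18), Nop2, Nip7 and Tsr1. Dkc1 went from 0.94 to 0.46 and Utp20 from 0.52 to 0.06. With a limit of 20 hormone-sensing UMIs per 10000, also chosen after the values were seen, 8 were past 1.5-fold against 11.4% of all genes, with a median of 0.36 against 0.06.

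The level of the members followed the S phase list in each library, in cells outside the hormone-sensing class. In WT the 38 genes summed to 2622 CPM in 1034 cells with no S phase UMI, 2767 CPM in 3162 cells up to 5 per 10000 and 3699 CPM (3585 to 3816) in 124 cells from 5 to 20. In C3-TAg the sums were 3299 CPM in 111 cells, 3482 CPM in 601, 4465 CPM in 2767 and 4833 CPM in 2408 cells over 20. At each of the 3 levels with 20 or more cells in both libraries C3-TAg stood above WT. The bins above 0 were not matched in S phase level. The list itself stood at 270.4 CPM in C3-TAg and 168 CPM in WT up to 5, and at 1244 and 717 CPM from 5 to 20. Only 6 WT cells were over 20 per 10000, and they summed to 4928 CPM (4507 to 5378). In WT Myc was level over the 3 lower bins, at 83.9, 79.2 and 81.3 CPM. It stood at 9.80 CPM (0.248 to 54.6) in the 6 WT cells over 20. Those few cells thus had a high sum of the members and little Myc. In C3-TAg it stood at 146 and 144 CPM in the lower bins and at 181 (176 to 186) and 173 CPM in the higher ones. In the casein-low non-cycling class of C3-TAg Myc was 152 CPM in cells under and 221 CPM in cells over the S phase limit. In that class of WT it went the other way, from 118 CPM in 529 cells under to 72.9 CPM, on 22 UMIs, in 45 cells over the limit. The summed members of these cells were 3413 and 3603 CPM in WT, against 3472 and 4856 CPM in C3-TAg. The bins of the S phase list were chosen after the values were seen, and casein-rich and casein-low cells take unequal shares of them.

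**Figure D3:**
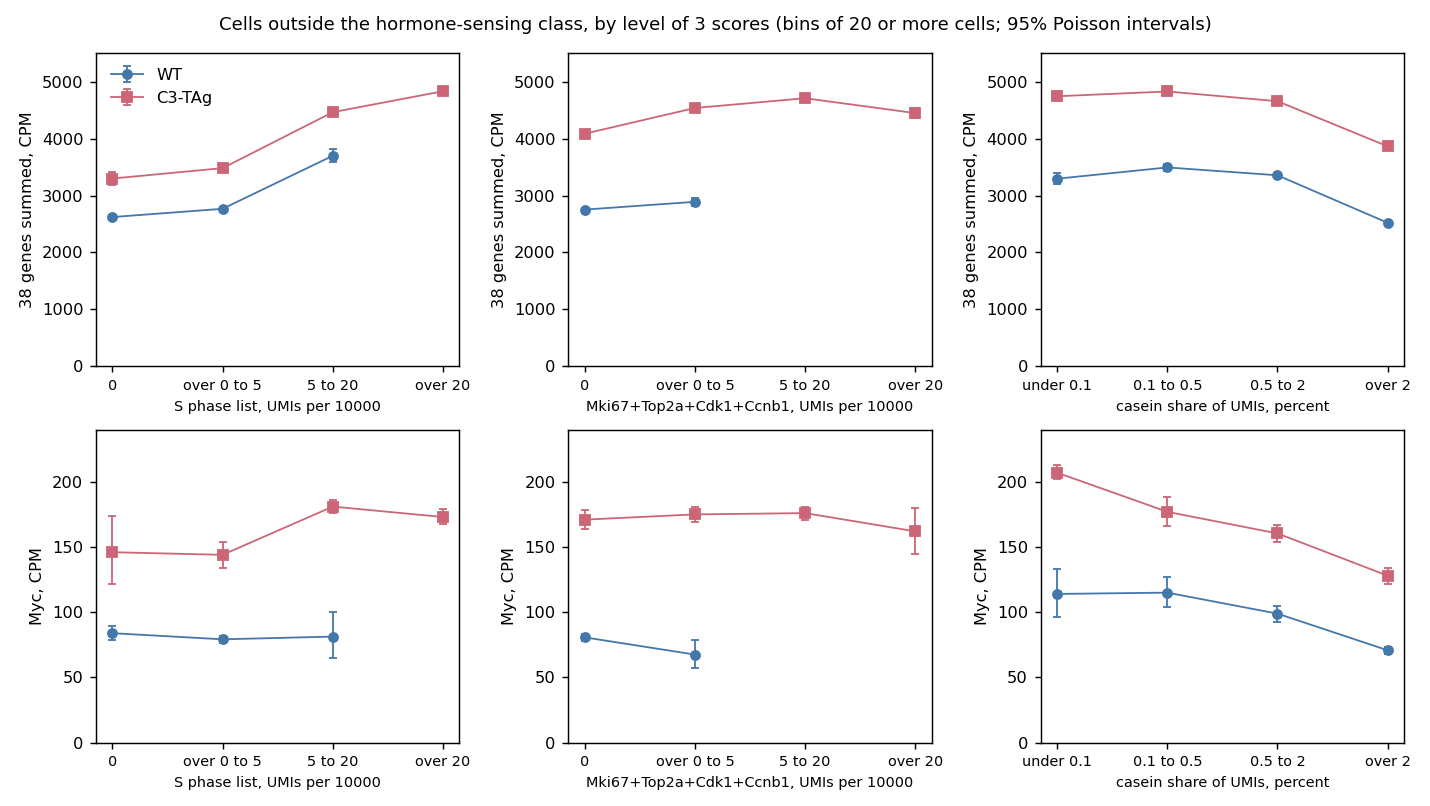
The 38 genes summed (top) and Myc (bottom), in CPM, in cells outside the hormone-sensing class binned by the S phase list, by the 4 mitotic genes and by casein share, for WT (blue circles) and C3-TAg (red squares), with 95% Poisson intervals and bins under 20 cells left out. The sum climbs with the S phase list, from 2622 to 3699 CPM in WT and from 3299 to 4833 CPM in C3-TAg, while Myc differs more with casein share.

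Along the mitotic genes the members changed less. In C3-TAg the sum was 4087 CPM in 1575 cells with no mitotic UMI, 4539 CPM up to 5, 4710.2 CPM from 5 to 20 and 4449 CPM in 203 cells over 20 per 10000. Ncl climbed through these bins from 757 to 967 CPM, while Npm1 was highest from 0 to 5, at 1331 CPM, and lowest over 20, at 944 CPM. Ribosomal protein genes took 23.7% of UMIs in the first of these bins and 12.6% in the last.

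Cycling and non-cycling C3-TAg cells were compared directly. No member passed 1.5-fold in either casein class. Among casein-rich cells 10.9% of all genes were higher and 2.19% lower in cycling cells, and the members' median was 0.18 against 0.13 for all genes. Nop56 (124 CPM in cycling and 90.1 CPM in non-cycling cells, log2 0.46), Utp15 (0.46), Nop58 (0.40) and Dkc1 (0.37) were at the top, and Myc was at -0.07 (-0.17 to 0.03). Among casein-low cells 9.61% of all genes were higher and 3.90% lower, and the median was 0.02 against 0.10.

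In the casein-low cells Dkc1 (60.8 and 46.9 CPM, 0.37), Polr1c (0.31), Nop56 (0.31) and Nop58 (0.26) led. Myc was lower in cycling cells, 191 against 215 CPM (-0.17, -0.24 to -0.10), but higher, at 0.33, when the non-cycling cells were limited to those under the S phase limit. Also lower were Nhp2 (-0.23) and Npm1 (-0.14). Against non-cycling cells under the S phase limit 9 of 38 were higher in casein-rich cycling cells, near the 24.0% of all genes, with medians of 0.41 for the members and 0.26 for all genes. In casein-low cycling cells 15 of 38 were higher against 31.4% of all genes, with medians of 0.47 and 0.25. In C3-TAg, then, the class called non-cycling holds many cells with replication transcripts.

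In CPM, casein-low cells held more of the members than casein-rich cells in both libraries. In C3-TAg 5 of 38 (13.2%) were higher by 1.5-fold, against 23.8% of all genes, and 0 lower, against 6.80%: Nop58 (253 against 154 CPM), Gar1 (113 against 71.3 CPM), Noc3l, Rrs1 and Utp15. The members' median was 0.31 and that of all genes 0.25. In WT 4 of 38 (10.5%) were higher, against 22.4%, and 0 lower, against 7.49%: Mybbp1a (51.5 against 29.8 CPM), Nop56 (93.0 against 54.9 CPM), Rrp9 and Rrp12, with medians of 0.36 and 0.22. TMM scaling gave medians of 0.04 in C3-TAg and 0.05 in WT, so the difference depends on the scaling. It left 0 of 38 past 1.5-fold in both libraries, where 13.8% of genes in C3-TAg and 12.6% in WT remained past it. These shares are below those of all genes, so the counts say nothing particular about the list.

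Myc was near the top in both, with log2 ratios of 0.57 (0.50 to 0.65) in C3-TAg and 0.58 (0.45 to 0.71) in WT. Under TMM scaling these were 0.31 and 0.27, and without the cells over the S phase limit the C3-TAg value was 0.10. Npm1 was the third lowest in both, at -0.11 and 0.06, above Polr1b (-0.28) and Nhp2 (-0.15) in C3-TAg and Bop1 (-0.19) and Wdr12 (0.05) in WT. Over 4 bins of casein share Myc went from 114 and 115 to 98.9 and 70.8 CPM in WT and from 207 to 177, 160.4 and 128 CPM in C3-TAg, so in C3-TAg it was highest in the bin of least casein, and in WT it was level over the 2 lowest bins. The summed members were level over the 3 lower bins and lower in the highest, at 3296, 3494, 3356 and 2520.5 CPM in WT and 4745, 4829, 4658 and 3865 CPM in C3-TAg. The casein share enters the total by which these levels are divided, as it reaches 6.30% of UMIs in WT and 3.43% in C3-TAg casein-rich cells.

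Casein-rich non-cycling cells differed from hormone-sensing cells in single members. Polr1b was 2.81-fold higher in the casein-rich cells of WT (5.90 against 2.10 CPM, log2 1.49, 1.07 to 1.93) and 2.66-fold in those of C3-TAg (8.77 against 3.29 CPM, 1.41, 0.97 to 1.87). Rrs1 (1.06), Nolc1 (0.90), Nop2 (0.83), Grwd1 and Ddx21 were the other 5 of the 6 of 38 (15.8%) higher in WT, against 18.6% of all genes. Rrp12 (6.75 against 12.1 CPM, -0.84) and Mybbp1a (29.8 against 50.3 CPM, -0.75) were the 2 (5.26%) lower, against 38.4% of all genes. The members' median was 0.17 and that of all genes -0.31.

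In C3-TAg 2 members (5.26%) were higher, Polr1b and Nolc1 (117 against 71.3 CPM, 0.71), against 14.2% of all genes, and 0 lower, against 28.7%. Nop58 (-0.47), Rrp9 (-0.44) and Mybbp1a (-0.41) stood lowest, and the medians were 0.29 for the members and -0.17 for all genes. TMM scaling put 17 of 38 past 1.5-fold in WT and 7 in C3-TAg, against 26.2% and 20.2% of all genes. Ncl, at 0.36 and 0.37, and Fbl, at 0.20 and 0.36, were higher in casein-rich cells of both libraries under both scalings.

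**Figure D4:**
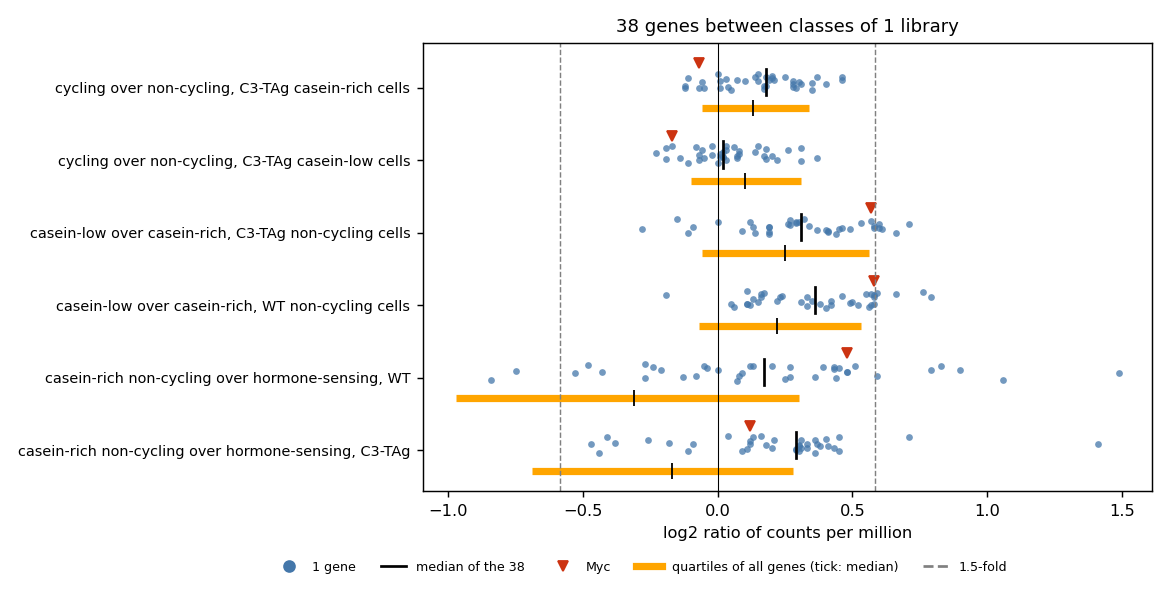
Each blue point is the log2 ratio of CPM of 1 of the 38 genes between 2 classes of the same library, the black line their median, the red triangle Myc, and the orange bar the quartiles of all genes with their median as a tick. No point passes 1.5-fold between cycling and non-cycling cells, and Polr1b lies farthest right at 1.49 and 1.41 in casein-rich over hormone-sensing cells.

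Within a class, cells with a Myc UMI differed little from cells without one in the other 37 members. In cells thinned to 2000 UMIs the log2 ratio of their summed level was 0.02 (-0.07 to 0.11), 0.08 and 0.13 in the hormone-sensing, casein-rich and casein-low non-cycling classes of WT. In C3-TAg it was 0.20 (0.14 to 0.26), 0.06 and 0.12 in these classes, -0.05 in casein-rich and 0.11 in casein-low cycling cells. For scale, the hormone-sensing class of C3-TAg held 3552 CPM in 423 cells with and 3095 CPM in 1597 cells without a Myc UMI. At this depth most cells that hold Myc transcripts show none, so the division is a weak one.

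Members with and without CACGTG in the promoter stretch searched were not separated by their ratio. The 8 with CACGTG had a median log2 ratio of 0.62 in hormone-sensing cells (0.02 in Pes1 to 1.18 in Nop2), and the 24 without it had 0.57. The medians were 0.47 and 0.56 in casein-rich and 0.47 and 0.53 in casein-low non-cycling cells. Of those with the motif 4, 3 and 3 of 8 were past 1.5-fold in the 3 classes, and of those without it 11, 11 and 11 of 24. Dkc1, whose promoter stretch is printed without a capital, had the highest ratio of either set outside the hormone-sensing cells. The split leaves out Bop1, Fbl, Myc, Npm1, Rrp12 and Rrs1. It counts a member as without the motif even if a site lies outside the stretch or differs from CACGTG. It therefore cannot show whether Myc acts on the members, which was not tested.

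Further genes of the pathway that are not on the list were set against the same shares of all genes higher, 20.7%, 25.6% and 31.6%, and the all-gene medians of 0.14, 0.27 and 0.30. Of 38 further genes of the small subunit processome, 10, 10 and 17 were past 1.5-fold in the hormone-sensing, casein-rich and casein-low non-cycling cells and 0 lower, with medians of 0.39, 0.36 and 0.53. Mphosph10, which works with U3, was 48.7 against 21.1 CPM in hormone-sensing cells. Of 40 further genes of large subunit assembly, 12, 9 and 13 were higher and 1 lower in each class, with medians of 0.38, 0.35 and 0.41. Nmd3, the export adaptor of the large subunit, was 59.3 against 24.8 CPM in hormone-sensing and 113 against 59.7 CPM in casein-low cells. The 1 that was lower was Las1l, an endonuclease partner of precursor cutting, at 84.9 against 150.2, 126 against 224 and 68.9 against 247 CPM.

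Of 13 factors of snoRNP assembly 2, 7 and 8 were higher. Znhit6 (28.5 against 14.3 CPM) and Nufip1 were the 2 in hormone-sensing cells. Znhit3 led in the others (36.4 against 12.9 and 36.6 against 15.3 CPM), and Rpap3 was lower in casein-rich cells (12.4 against 48.1 CPM). Other genes of the RNA polymerase I machinery were mostly within 1.5-fold: 0, 2 (Polr1e and Cd3eap) and 4 (Cd3eap, Znrd1, Taf1a and Taf1b) of 13 were higher and 0 lower. Ubtf, its DNA-binding factor, stood at 51.8, 71.4 and 75.2 CPM in WT and 68.6, 78.4 and 98.9 CPM in C3-TAg. Of the RNA polymerase III genes 0 of 21, 6 of 21 and 5 of 20 were higher and 0, 0 and 1 lower, led by Gtf3a and Polr3k, and the 1 lower was Gtf3c5.

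Of 14 genes of the Myc network 11, 11 and 12 were measured, and 0, 4 and 4 of these were higher and 0, 1 and 1 lower. Max stood at 57.4, 70.7 and 67.4 CPM in WT and at 64.7, 74.6 and 74.2 CPM in C3-TAg. Mycn had 4 to 11 UMIs in the C3-TAg non-cycling and hormone-sensing classes, and Mycl stood at 7.08, 0.128 and 1.91 CPM in WT and at 5.11, 0.436 and 4.45 CPM in C3-TAg. It was thus highest in hormone-sensing cells in WT, whereas in C3-TAg casein-low cycling cells held 5.82 CPM. Mxd1, a repressor that competes for Max, was the lower one outside the hormone-sensing cells, at 14.4 against 30.7 and 32.4 against 53.6 CPM.

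Of 30 known growth targets of Myc outside ribosome assembly, 5, 16 and 13 were higher and 1 lower in each class, with medians of 0.17, 0.62 and 0.50. The 5 of 30 in hormone-sensing cells are a share below that of all genes, and the median there is close to the 0.14 of all genes. These 5 were Mthfd2, Srm, Shmt2, Tfrc and Ran, and the lower gene was Hk2, Odc1 and again Hk2. Mthfd2, a mitochondrial folate enzyme, was 66.9 against 9.66 CPM in hormone-sensing cells. Cdk4 was 145 against 63.4 CPM in casein-rich and Hnrnpa1 584 against 232 CPM in casein-low cells. Odc1, the ornithine decarboxylase often used as a Myc target, was not higher in any class: 54.7 against 68.8, 48.0 against 92.6 and 77.3 against 105 CPM.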

How the data were processed

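The deposited values are raw UMI counts per gene and barcode, 1 matrix for each library. The submitters' processing notes name Cell Ranger 3.1.0 and the build mm10, and the matrix header names the same Cell Ranger version, per the file headers. The sources used here do not say how barcodes were called or whether strand was used. Barcodes with 500 or more genes, 1000 or more UMIs and at most 10% mitochondrial UMIs were kept (7406 of 8993 in WT and 8458 of 9575 in C3-TAg). Doublets called per library by Scrublet in scanpy 1.11.5 were then removed (360 and 544 cells). Total counts were 91133082 and 91932121 UMIs.

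Raw counts were summed per class and divided by the class total, and the log2 ratio of the resulting CPM was given an exact conditional Poisson interval (scipy 1.17.1). The calculation was tested on simulated Poisson counts only, which hold no variation between cells or libraries beyond counting error. Genes with at least 50 UMIs over both classes were measured, and 1.5-fold was the threshold. Levels carry exact Poisson intervals. TMM factors were computed from the summed counts.

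The members, the related lists and the class limits were chosen with earlier results of these data known. Planned for naming in each comparison were Myc, Ncl, Npm1, Fbl, Nop56, Dkc1, Polr1a and Polr1b, and the 4 highest and 4 lowest ratios. Of each related list, at most 2 genes at either end with 20 CPM or more in 1 class were planned. The text does not name all of these in every comparison, and no rule set which were left out. Other genes were named to show a role and were chosen after their values were seen.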

Additional observations from a re-analysis of the deposited data

How the results depend on the processing

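The Myc log2 ratio of C3-TAg over WT was above 0 under every alternative, between 1.07 and 1.30 (16 alternatives) in hormone-sensing, 0.62 and 0.96 (13) in casein-rich and 0.37 and 0.99 (13) in casein-low non-cycling cells. Of 122 Myc ratios over the 9 comparisons, 94 stayed within the counting interval of the reported value and 28 did not. The sign of Myc turned for cycling over non-cycling casein-low cells (0.33 without S phase cells) and for casein-rich over hormone-sensing cells of C3-TAg (-0.06 with a mitochondrial limit of 5%). Of 122 medians 94 stayed within an order-statistic interval over the members, which reflects their spread and not replicate error, and 92 of 122 counts of higher and 114 of 122 counts of lower members stayed within 1.5 times. Filters of 1 or 200 UMIs, a casein limit of 1% and leaving out cells of other types moved none of the Myc ratios, medians or counts. In what follows medians are log2 ratios of the 38 genes and counts are members past 1.5-fold. The cause of a shift was not tested. In hormone-sensing cells of C3-TAg over WT the share of all genes higher went from 20.7% to 9.24% under the mitotic and S phase limits. That share was computed for only some of the settings below. A count without it is not a result about the members.

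TMM scaling gave medians of 0.37, 0.26 and 0.31 for C3-TAg over WT in hormone-sensing, casein-rich and casein-low cells (9, 4 and 8 higher). It gave 0.02 and -0.06 for cycling over non-cycling casein-rich and casein-low cells. For casein-low over casein-rich cells it gave 0.04 in C3-TAg and 0.05 in WT (0 and 0 higher). For casein-rich over hormone-sensing cells it gave 0.49 in WT (17 higher, 0 lower) and 0.48 in C3-TAg (7 higher). Dividing by the total without the 50 most abundant genes gave 0.45 for C3-TAg over WT in casein-rich cells, -0.02 for cycling casein-low cells, 0.19 and 0.19 for casein-low over casein-rich cells of C3-TAg and WT (1 and 2 higher), and, for casein-rich over hormone-sensing cells, 11 higher in WT and 0.35 in C3-TAg.

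Non-cycling cells under the S phase limit gave 0.31 (7 higher) in casein-rich and 0.03 (3 higher, 3 lower) in casein-low cells for C3-TAg over WT, and 0.41 (9 higher) and 0.47 (15 higher) for cycling over non-cycling cells. In C3-TAg they gave 0.07 (0 higher, 1 lower) for casein-low over casein-rich and 0.00 (2 lower) for casein-rich over hormone-sensing cells. Stricter mitotic classes gave 11 higher in casein-low cells of C3-TAg over WT, 5 higher in cycling casein-rich cells, 0.12 with 1 higher in cycling casein-low cells, and 1 higher and 1 lower in casein-rich over hormone-sensing cells of C3-TAg.

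Hormone-sensing cells under the mitotic and S phase limits gave 0.32 (4 higher) for C3-TAg over WT and, as the base of casein-rich over hormone-sensing cells of C3-TAg, 0.43 (14 higher). A limit of 20 per 10000 gave 0.36 (8 higher) and 0.44 (11 higher, 1 lower) for the same. Both were chosen after seeing the data, as was a casein limit of 0.5% on hormone-sensing cells, which moved neither the median, the counts nor Myc. A limit of 10 per 10000 gave 3 higher for casein-low over casein-rich and 0.37 (8 higher) for casein-rich over hormone-sensing cells, both in C3-TAg. A mitochondrial limit of 5% gave 0.74 in hormone-sensing cells of C3-TAg over WT, 2 higher in C3-TAg and 7 in WT for casein-low over casein-rich cells, and 0.01 (1 higher, 2 lower) for casein-rich over hormone-sensing cells of C3-TAg. The mean over cells gave 2 higher for casein-low over casein-rich cells of C3-TAg. For casein-rich over hormone-sensing cells of C3-TAg, keeping called doublets gave 1 higher and thinning to 5000 UMIs gave 1 lower.

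Thinning to 5000 UMIs in place of 2000 raised the share of cells with a Myc UMI. The shares were 21.3%, 28.3% and 36.9% in WT hormone-sensing, casein-rich and casein-low non-cycling cells and 41.0%, 46.2% and 56.3% in those of C3-TAg, with 45.9% and 51.5% in its casein-rich and casein-low cycling cells. The log2 ratio of the other members between cells with and without a Myc UMI became 0.12 in hormone-sensing and 0.07 in casein-rich cycling C3-TAg cells at that depth, and 0.10 in hormone-sensing C3-TAg cells with called doublets kept. Depth limits the scarce members most: Polr1b had 56 UMIs in each hormone-sensing class. No paired analysis was possible because each group is 1 library.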
